A study of Rattus norvegicus with 16 samples.

Results

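The genes described here belong to the large families of ubiquitin ligase proteins whose names begin with Fbxo, Fbxl, Fbxw, Asb, Klhl, Kbtbd and Trim, followed by a number. They were taken by symbol from the annotation of the array, without Fbxo32 and Trim63, the pair of muscle atrophy ligases. The pattern matched 127 of the 14557 genes tested: 43 F-box genes (23 Fbxo, 13 Fbxl and 7 Fbxw), 12 Asb genes, 32 kelch genes (28 Klhl and 4 Kbtbd) and 40 Trim genes. The pattern itself uses no measured value, but the members were chosen with earlier results of these data known. A gene with several transcript clusters, the probe groups of this array, was read by its brightest cluster, which concerned 5 of the 127.

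Expression was measured in the plantaris, a calf muscle, of Sprague Dawley rats described as retired breeders. Both Achilles tendons had been excised, so that the gastrocnemius and soleus no longer carried load and the plantaris took it over, a model of growth by overload. Control muscle without overload (day 0) and muscle at 3, 7 and 28 days after surgery were each measured on 4 arrays, 16 in all, of the Affymetrix Rat Gene 2.1 ST design. There was no sham surgery, so the effects of load and of surgery cannot be told apart. The labels number the replicates without saying that they were separate animals, so p-values speak only of the variation among the arrays used, and part of that may be technical. At day 0 the mean log2 values of the muscle proteins Ckm, Acta1, Actn3 and Mb were 13.06, 13.4, 13.1 and 13.0.

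A ubiquitin ligase attaches ubiquitin to a chosen protein and so marks it, often for destruction by the proteasome. F-box proteins choose the substrate of ligases built on the scaffold cullin 1, Asb proteins do so through a SOCS box on cullin 5, and most BTB-kelch proteins (Klhl, Kbtbd) on cullin 3. Trim proteins carry a RING finger, B-boxes and a coiled coil and usually act as ligases by themselves. In muscle, members of these families turn over sarcomere proteins, stabilise thin filaments, reseal torn membranes and take part in atrophy, while others serve cell division or the sensing of viral RNA.

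Among 16 measured muscle-enriched members, 9 fell and 2 rose at day 3, where 19.6% of all genes fell and 21.7% rose. After each array was centred on its median over the tested genes, 13 fell and 1 rose, beside 58% and 12.9% of all genes. The DNA just before the start sites of some of these members is shown first. Of the 127 members, 107 had a promoter in the RefSeq table of the assembly GRCr8, and the 250 bases before each start were searched on both strands for the E-box CAGCTG, which reads the same on both strands and is a site of the MyoD family, and for the box of MEF2 factors. The MEF2 box was searched as YTAWWWWTAR, where Y is C or T, W is A or T and R is A or G. The 7 windows below belong to muscle-enriched members that the results turn on. The first 6 are among those that hold a box, and Klhl31 was added as a strongly changed member that holds neither. They run 5′ to 3′ in the direction of the gene, and carry E-boxes and MEF2 boxes in capitals.
Klhl40, chr8:130318543-130318792, plus strand: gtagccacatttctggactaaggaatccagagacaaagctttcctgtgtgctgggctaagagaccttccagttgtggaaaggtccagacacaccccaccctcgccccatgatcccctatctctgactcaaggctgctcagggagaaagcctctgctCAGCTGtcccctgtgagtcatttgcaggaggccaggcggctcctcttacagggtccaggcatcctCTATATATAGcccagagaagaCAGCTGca
Klhl41, chr3:74841868-74842117, plus strand: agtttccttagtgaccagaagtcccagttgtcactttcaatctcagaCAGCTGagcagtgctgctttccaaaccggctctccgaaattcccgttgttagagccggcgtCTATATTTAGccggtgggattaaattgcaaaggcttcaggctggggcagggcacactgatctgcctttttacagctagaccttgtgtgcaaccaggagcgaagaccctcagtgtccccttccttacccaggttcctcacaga
Asb16, chr10:87725878-87726127, plus strand: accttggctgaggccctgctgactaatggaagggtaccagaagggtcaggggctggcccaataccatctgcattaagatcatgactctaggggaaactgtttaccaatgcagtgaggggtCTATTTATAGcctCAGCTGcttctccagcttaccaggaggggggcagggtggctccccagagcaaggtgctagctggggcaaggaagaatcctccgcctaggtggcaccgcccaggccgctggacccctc
Trim72, chr1:192043970-192044219, plus strand: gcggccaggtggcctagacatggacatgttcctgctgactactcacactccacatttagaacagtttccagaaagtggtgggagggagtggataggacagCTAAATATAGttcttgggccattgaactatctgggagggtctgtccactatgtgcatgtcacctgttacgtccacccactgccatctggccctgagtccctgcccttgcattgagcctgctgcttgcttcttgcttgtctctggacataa
Klhl34, chrX:40969122-40969371, minus strand: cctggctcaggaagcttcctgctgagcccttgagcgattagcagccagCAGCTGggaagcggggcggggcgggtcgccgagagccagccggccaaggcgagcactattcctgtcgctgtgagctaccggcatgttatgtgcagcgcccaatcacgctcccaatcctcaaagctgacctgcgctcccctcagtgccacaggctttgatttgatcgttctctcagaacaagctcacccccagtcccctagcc
Asb2, chr6:128275651-128275900, minus strand: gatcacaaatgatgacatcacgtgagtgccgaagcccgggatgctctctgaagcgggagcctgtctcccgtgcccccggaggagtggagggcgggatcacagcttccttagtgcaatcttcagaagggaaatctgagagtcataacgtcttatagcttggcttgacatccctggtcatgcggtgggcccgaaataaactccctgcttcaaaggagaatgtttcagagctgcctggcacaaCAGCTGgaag
Klhl31, chr8:87395628-87395877, plus strand: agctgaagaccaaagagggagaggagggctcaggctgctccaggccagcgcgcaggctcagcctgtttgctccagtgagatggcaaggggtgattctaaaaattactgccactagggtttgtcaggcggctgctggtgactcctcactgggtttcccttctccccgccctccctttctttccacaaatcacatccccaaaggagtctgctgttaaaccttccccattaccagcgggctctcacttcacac

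In these windows E-boxes began 94 and 8 bases before the start of Klhl40, 203 before Klhl41, 117 before Asb16, 202 before Klhl34 and 10 before Asb2. A MEF2 box began 29 bases before the start of Klhl40, 142 before Klhl41, 130 before Asb16 and 150 before Trim72, and it overlapped no E-box there. The Klhl40 match, CTATATATAG, contains TATATA, and the search cannot tell a MEF2 site from another element rich in A and T near a start. Over all 27457 promoters of the same length, 11.9% held the E-box and 3.07% the MEF2 box. Among the members, 19 of 107 (17.8%) held the E-box and 5 (4.67%) the MEF2 box, namely Asb16, Klhl40, Klhl41, Trim72 and Trim59. Of the 14 muscle-enriched members with a promoter, 6 (42.9%) held the E-box and 4 (28.6%) the MEF2 box, and 7 held neither (Asb4, Asb5, Asb8, Asb12, Fbxl22, Klhl30 and Klhl31). Klhl40 and Asb16, which both hold both boxes, moved in opposite directions at day 3. Another pattern, GAAA, any 2 bases and GAAA again, which resembles the interferon-stimulated response element, stood on either strand in 3.29% of all promoters and in 4 of the 107 (3.74%), those of Fbxo7, Kbtbd2, Trim21 and Trim40. A match is only a run of letters and shows no binding.

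At day 3, 58.3% of Asb genes and 46.9% of kelch genes fell, and at day 28 none of either family passed the test against control muscle on the deposited scale. The threshold for a change was an adjusted p of 0.05 in limma's moderated test, with Benjamini-Hochberg adjustment over all 14557 genes. At day 3, 20 of the 127 members rose and 40 fell, with a median log2 difference of -0.13. Of all genes tested, 41.3% changed at day 3, 21.7% rising and 19.6% falling, and their median difference was -0.05. At day 7, 15 members rose and 29 fell (median -0.07) while 31.7% of all genes changed, 16.9% rising and 14.9% falling. At day 28, 5 members rose and 2 fell, beside 9.09% of all genes changed, 6.29% rising and 2.8% falling. All 3 comparisons share the day 0 arrays. The rises at day 7 numbered 9 without replicate 3 of day 0. The members changed at day 28 numbered 2 without replicate 3 of day 28, 3 without replicate 1 of day 28, and 4 without replicate 2 of day 28 or without replicate 3 or 4 of day 0.

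By family, 11 of 43 F-box genes fell and 6 rose at day 3, 7 of 12 Asb genes fell and 2 rose, 15 of 32 kelch genes fell and 3 rose, and 7 of 40 Trim genes fell and 9 rose. The shares that fell were 25.6%, 58.3%, 46.9% and 17.5%, beside 19.6% of all genes. Those that rose were 14%, 16.7%, 9.38% and 22.5%, beside 21.7% of all genes. The median log2 differences of the families were -0.12, -0.76, -0.39 and 0.06 in that order. At day 7, 9 F-box, 6 Asb, 13 kelch and 1 Trim gene fell, and 2, 2, 4 and 7 rose. The falls were 20.9%, 50%, 40.6% and 2.5% of the families, beside 14.9% of all genes. The rises were 4.65%, 16.7%, 12.5% and 17.5%, beside 16.9% of all genes. At day 28, 2 F-box genes fell (4.65%), and 1 F-box (2.33%) and 4 Trim genes (10%) rose, beside 2.8% of all genes falling and 6.29% rising. The Asb and kelch counts at day 28 were 0 of 12 and 0 of 32 by limma, with 2 and 5 genes at an unadjusted p under 0.05. No test compared one family with another.

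Between loaded days, 11 members rose and 11 fell from day 3 to day 7, where 15.3% of all genes changed, 6.02% rising and 9.23% falling. From day 7 to day 28, 15 members rose and 4 fell, beside 17.6% of all genes changed, 8.24% rising and 9.38% falling, and the rises numbered 9 without replicate 3 of day 28. From day 3 to day 28, 33 members rose and 18 fell, beside 32.7% of all genes changed, 15.9% rising and 16.8% falling. The share of changed members that were higher was 50%, 78.9% and 64.7%, beside 39.5%, 46.8% and 48.6% of all changed genes. After each array was centred on its median over the tested genes it was 68.8%, 88.9% and 83.3% for the members and 56.9%, 65.7% and 70.3% for all changed genes.

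**Figure D1:**
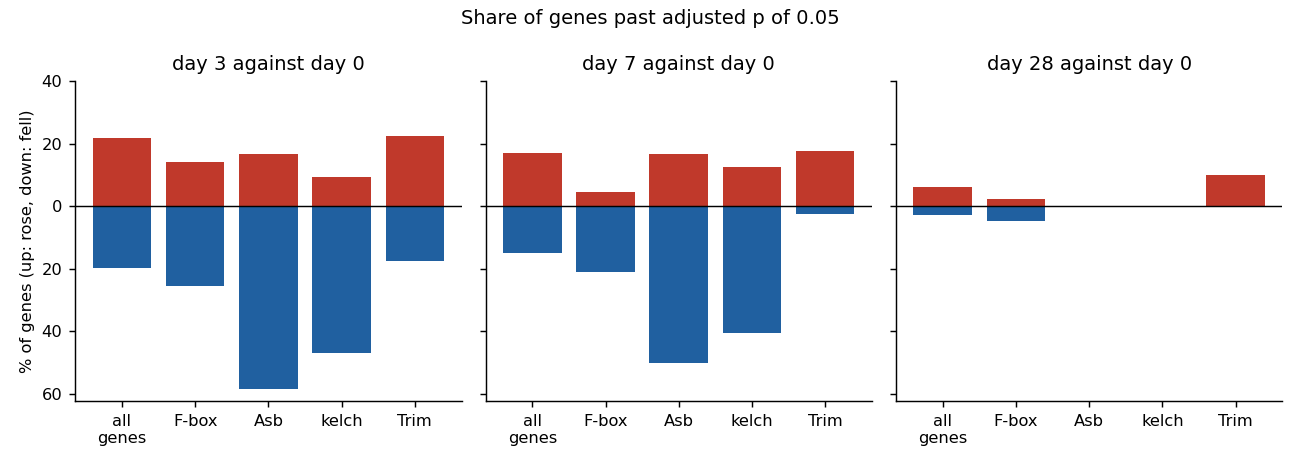
Percent of genes past an adjusted p of 0.05 at days 3, 7 and 28 against day 0, for all 14557 genes tested and for each family. Red bars give the share that rose and blue bars the share that fell. At day 3 the share that fell was 58.3% of Asb and 46.9% of kelch genes beside 19.6% of all genes. At day 28 both families stand at 0 on the deposited scale, where only 2.8% of all genes fell and 6.29% rose.

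The direction of the small differences depends on the scale. The median over all 36685 clusters was 3.36 to 3.41 on the day 0 arrays and lower, 3.19 to 3.26, on day 3. It was 3.19 to 3.33 on day 7 and 3.27 to 3.36 on day 28. The median over the tested genes went the other way, from 4.16 to 4.24 on day 0 up to 4.65 to 4.71 on day 3. This tested-gene median was 4.54 to 4.59 on day 7 and 4.42 to 4.49 on day 28. Centring each array on its tested genes therefore moved every log2 difference by -0.46 on day 3, -0.36 on day 7 and -0.25 on day 28 against day 0. The members then numbered 10 rises and 78 falls at day 3, 4 and 66 on day 7, and 1 and 29 on day 28, while 12.9% of all genes rose and 58% fell on day 3, 9.73% and 48.3% on day 7, and 3.74% and 20.9% on day 28. On that scale 9 of 12 Asb and 24 of 32 kelch genes fell at day 3, and 2 Asb and 10 kelch genes fell at day 28. Under the brighter-gene centring and cyclic loess no gene of either family passed at day 28. The share of changed members that were higher was 33.3% on day 3, 34.1% on day 7 and 71.4% on day 28 as deposited, and 11.4%, 5.71% and 3.33% after that centring. For all changed genes this share went from 52.5% to 18.2% on day 3. Centring on the brighter 50% of genes gave 23.9% on day 7 and 55.6% on day 28, and cyclic loess gave 50% on day 28.

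**Figure D2:**
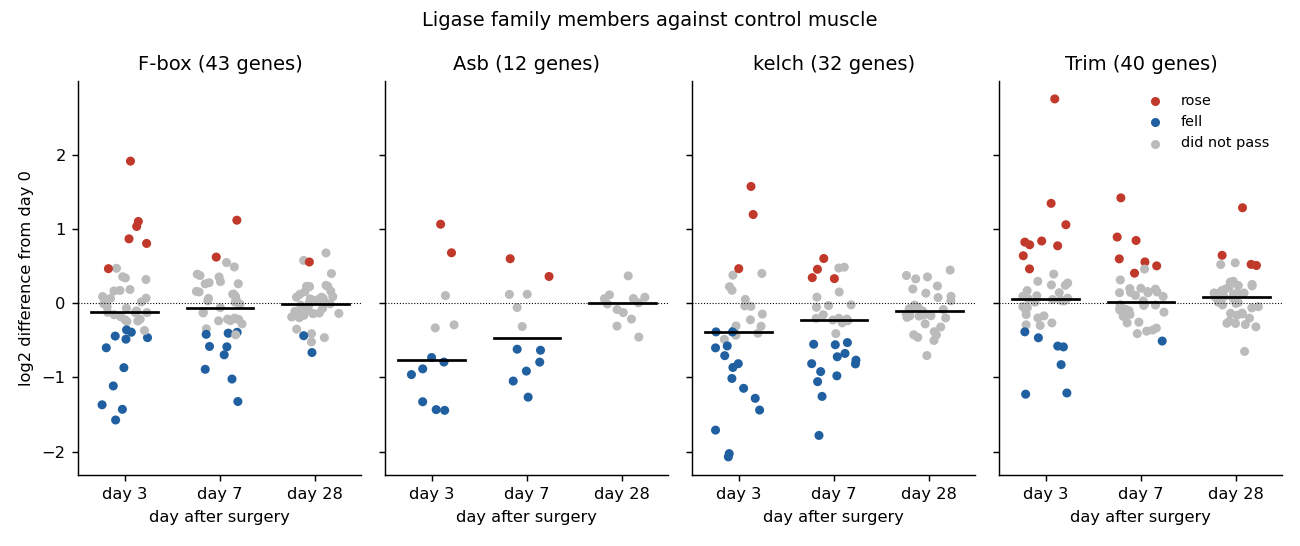
Log2 difference from day 0 of each of the 127 members at days 3, 7 and 28, by family. Each point is a gene, red where it rose, blue where it fell and grey where it did not pass the test, and black bars are the family medians. The Asb median lies at -0.76 on day 3 and at 0.00 on day 28.

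Many members were dim. The mean of 34 members lay under the median of all clusters in every group, among them 17 Trim, 12 F-box, 4 kelch and 1 Asb gene, and 9 more lay under it in some groups. Only 5 of these 34 passed a test in any comparison (Fbxw12, Trim71, Trim75l-ps1, Trim6 and Kbtbd11). Over all 6 comparisons 73 of the 127 members passed at least once and 54 did not. Fbxw7, which marks cyclin E and Myc, and Fbxl22, a protein of the sarcomere, were among the dim ones. Their values ranged from 1.75 to 2.84 and from 2.37 to 3.23 over the 16 arrays, and neither passed in any comparison on the deposited scale. After centring on the tested genes Fbxl22 passed at day 3 (-0.71, adjusted p = 0.000214) and day 28 (-0.41, adjusted p = 0.0335) and Fbxw7 at day 7 (-0.78, adjusted p = 0.00947). Fbxl22 also passed at day 3 under the brighter-gene centring (-0.40, adjusted p = 0.018).

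Markers of other cell types moved with the days. The mean log2 level over 15 of 18 listed macrophage markers was 4.1 to 4.39 on the day 0 arrays, where 4 of them lay under the median of all clusters, 8.34 to 8.73 on day 3, 6.75 to 7.27 on day 7 and 5.32 to 5.86 on day 28. Over 14 of 24 muscle fibre markers it was 12.32 to 12.46, 11.91 to 12.12, 12.25 to 12.44 and 12.41 to 12.5. At day 3, 7 of these 14 muscle markers fell and 0 rose, and 12 of 12 cell division markers rose, from 3.62 to 3.84 up to 6.03 to 7.02. Fibroblast markers (10 of 11) lay between 7.06 and 7.29 on day 0, 9.75 and 10.39 on day 3, 9.98 and 10.43 on day 7, and 8.62 and 8.91 on day 28. On days 0 and 3, endothelial markers (8 of 11) lay between 6.41 and 6.87 and then between 5.48 and 5.85, and lymphocyte markers (9 of 12) between 2.76 and 2.91 and then between 3.2 and 3.58. The part of these shifts in the results below was not tested. In whole muscle, fewer cells of a type and less RNA per cell cannot be told apart.

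Among the kelch proteins of skeletal muscle, Klhl31, Klhl34 and Klhl38 fell after loading while Klhl40 rose, and Klhl41 did not pass the test at day 3. Klhl31 is needed for muscle structure in mice. Its log2 values were 11.74, 11.58, 11.78 and 11.72 on day 0, 10.29, 9.98, 10.32 and 9.39 on day 3, 10.66, 10.52, 11.16 and 11.21 on day 7, and 11.45, 11.23, 11.41 and 11.45 on day 28. All arrays of the later days lay below the day 0 arrays, and those of day 3 lowest. Klhl31 fell by 1.71 ± 0.19 on day 3 (log2 difference ± SE, n = 4 arrays a group, adjusted p = 1.11e-06 in limma), a 3.27-fold change, and by 0.81 ± 0.19 on day 7 (adjusted p = 0.00321). At day 28 its difference was -0.32 ± 0.19 (adjusted p = 0.347), and it passed the test after centring on the tested genes (-0.57, adjusted p = 0.0441).

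Klhl34 read 6.76, 6.93, 7.03 and 6.77 on day 0, 5.11, 5.56, 5.14 and 3.57 on day 3, 4.05, 5.77, 5.53 and 5.02 on day 7, and 6.29, 5.60, 6.09 and 7.79 on day 28. Both days 3 and 7 lay wholly below day 0, with 1 much lower array each, and day 28 spanned the control range. The falls were 2.03 ± 0.46 on day 3 (adjusted p = 0.00144) and 1.78 ± 0.46 on day 7 (adjusted p = 0.00585). From day 7 to day 28 it rose by 1.35 ± 0.46 with overlapping arrays (adjusted p = 0.0486), a call lost in 12 of 16 fits that left out 1 array each, where the difference ran from 0.90 to 1.5.

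Klhl38 gave 9.24, 9.64, 9.26 and 9.25 on day 0, 8.41, 7.71, 8.63 and 7.51 on day 3, 8.12, 8.44, 8.24 and 8.37 on day 7, and 9.55, 9.17, 9.82 and 9.39 on day 28. The arrays of days 3 and 7 lay below all of day 0 and all of day 28. It fell by 1.28 ± 0.21 on day 3 (adjusted p = 8.74e-05) and by 1.06 ± 0.21 on day 7 (adjusted p = 0.000938), and rose by 1.19 ± 0.21 from day 7 to day 28 (adjusted p = 0.00101). Klhl30, also enriched in muscle, ranged from 6.75 to 7.02 on day 0 and from 6.10 to 6.88 on day 3, with a difference of -0.40 ± 0.20 (adjusted p = 0.116). It passed after centring on the tested genes (-0.86, adjusted p = 0.00106) or on the brighter genes (-0.56, adjusted p = 0.0262).

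Klhl40 and Klhl41 are related muscle proteins that stabilise nebulin and the thin filament, and mutations in either cause nemaline myopathy in people. Klhl40 measured 8.16, 7.92, 7.84 and 7.94 on day 0, 9.22, 9.26, 8.97 and 9.20 on day 3, 8.36, 8.74, 8.35 and 8.24 on day 7, and 8.34, 8.32, 7.86 and 8.10 on day 28. Day 3 stood above every other array, day 7 between day 3 and day 0, and day 28 overlapped day 0. It rose by 1.2 ± 0.14 on day 3 (2.29-fold, adjusted p = 1.94e-06) and by 0.46 ± 0.14 on day 7 (adjusted p = 0.0183), and fell by 1.00 ± 0.14 from day 3 to day 28 (adjusted p = 2.47e-05). The day 7 call was lost without replicate 3 of day 0 (0.42) and without replicate 2 of day 7 (0.35), and the difference was 0.10 after centring on the tested genes.

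For Klhl41 the arrays read 11.41, 11.39, 11.44 and 11.48 on day 0, 11.50, 11.34, 11.28 and 11.46 on day 3, 11.86, 11.91, 11.51 and 11.77 on day 7, and 11.34, 11.20, 11.22 and 11.33 on day 28. Day 7 lay above all other arrays and day 28 below day 0, while days 0 and 3 overlapped. Its difference was -0.04 ± 0.11 on day 3 (adjusted p = 0.83), with a sign that turned under cyclic loess (0.29), whereas after centring on the tested genes it was -0.50 and passed (adjusted p = 0.000875). At day 7 it rose by 0.33 ± 0.11 (adjusted p = 0.0284), which became -0.03 after centring on the tested genes and lost its call in 6 of 16 fits without 1 array (0.28 to 0.34). From day 7 to day 28 it fell by 0.49 ± 0.11 (adjusted p = 0.00511). Against day 0, the lower level at day 28 passed after centring on the tested genes (-0.41, adjusted p = 0.0147).

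The largest fall of a kelch gene at day 3 was that of Klhl23. The values were 8.23, 8.38, 8.45 and 8.51 on day 0, 6.33, 6.29, 6.79 and 5.88 on day 3, 7.79, 7.04, 7.85 and 7.82 on day 7, and 7.54, 8.06, 8.0 and 7.96 on day 28. The 4 days separate, except that days 7 and 28 overlap. Klhl23 fell by 2.07 ± 0.20 on day 3 (4.2-fold, adjusted p = 1.91e-07) and by 0.77 ± 0.20 on day 7 (adjusted p = 0.00674), and rose by 1.30 ± 0.20 from day 3 to day 7 (adjusted p = 0.000242).

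Kelch proteins of cell division did not move as 1 group. Klhl21, which with cullin 3 brings Aurora B to the spindle midzone in dividing cells, had values from 7.27 to 7.75 on day 0, 6.36 to 7.06 on day 3, 5.91 to 6.73 on day 7 and 7.15 to 7.76 on day 28. It fell by 0.81 ± 0.19 on day 3 (adjusted p = 0.00215) and by 1.26 ± 0.19 on day 7 (adjusted p = 7.38e-05), the latter 0.67 where the mean of its clusters was taken. Klhl9, a partner of Aurora B control that also marks Irs1, measured 9.08, 9.20, 9.06 and 9.19 on day 0, 8.67, 8.64, 9.13 and 8.55 on day 3, 9.29, 9.57, 9.60 and 9.45 on day 7, and 9.42, 9.45, 9.55 and 9.53 on day 28. At day 3, 1 array lay within the control range and 3 below it, whereas all of days 7 and 28 lay above it. Klhl9 fell by 0.39 ± 0.13 on day 3 (adjusted p = 0.0218) and rose by 0.73 ± 0.13 from day 3 to day 7 (adjusted p = 0.00076). Its rise of 0.35 over day 0 on day 7 (adjusted p = 0.0489) became -0.01 after centring on the tested genes, and was lost in 13 of 16 fits without 1 array, where it ran from 0.31 to 0.37.

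Klhl6, a kelch protein of lymphoid and endothelial cells, rose at day 3. It ranged from 3.87 to 4.86 on day 0, 5.53 to 6.21 on day 3, 4.38 to 5.04 on day 7 and 4.12 to 4.44 on day 28, and day 3 alone stood apart. The rise at day 3 was 1.57 ± 0.21 (2.98-fold, adjusted p = 9.55e-06), followed by a fall of 1.09 ± 0.21 to day 7 (adjusted p = 0.00178). Of 8 endothelial markers, 5 fell at day 3 and 1 rose (Tie1, 0.67). Of 9 lymphocyte markers 4 rose and 0 fell, with 4 of the 9 under the median of all clusters at day 3. Their part in the Klhl6 result was not tested.

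The other kelch genes that fell at day 3 were Kbtbd3, Klhl4, Klhl12, Klhl15, Klhl28, Klhl20, Klhl36, Klhl7 and Kbtbd2, listed to account for all calls, with log2 differences from -1.44 (Kbtbd3) to -0.37 (Kbtbd2). The remaining rise was that of Klhl18 (0.47). From day 3 to day 28, 14 of 32 kelch genes rose, 3 fell and 15 did not pass, where 15.9% of all genes rose. From day 7 to day 28, 8 rose, 1 fell and 23 did not pass, where 8.24% of all genes rose. Both comparisons share arrays with those against day 0, so these counts are not separate evidence.

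**Figure D3:**
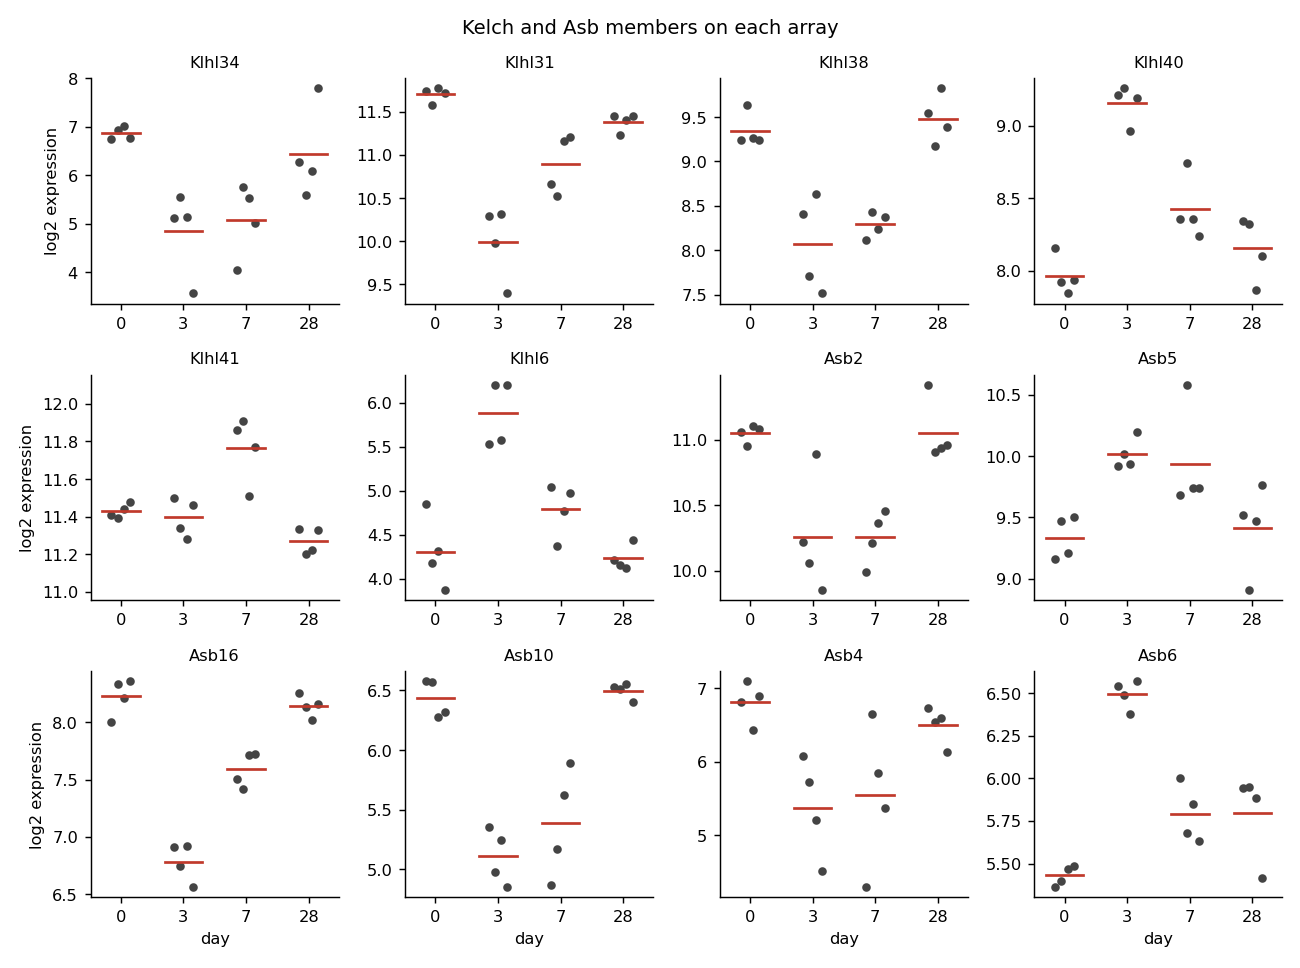
Log2 expression of 6 kelch and 6 Asb members on each of the 16 arrays by day, each gene with its own axis. Points are arrays and red bars the means of 4. Klhl31, Klhl34, Klhl38, Asb2, Asb4, Asb10 and Asb16 dip at day 3, while Klhl40, Klhl6, Asb5 and Asb6 peak there or at day 7.

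Asb2, which marks filamins for destruction and limits muscle mass in mice, fell at days 3 and 7 and stood at its control level at day 28. Its log2 values were 11.06, 10.95, 11.11 and 11.08 on day 0, 10.22, 10.06, 10.89 and 9.85 on day 3, 9.99, 10.21, 10.37 and 10.46 on day 7, and 11.42, 10.90, 10.94 and 10.96 on day 28. Days 3 and 7 lay below all control arrays, replicate 3 of day 3 only just. The fall was 0.79 ± 0.19 on both days (1.73-fold, adjusted p = 0.00221 on day 3 and 0.00332 on day 7), and the difference at day 28 was 0.01 ± 0.19 (adjusted p = 0.992). At day 3 the value was -1.25 after centring on the tested genes and -0.52 under cyclic loess.

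Asb16, with both boxes in its promoter, had the smallest adjusted p of the family at day 3. It read 8.0, 8.34, 8.21 and 8.36 on day 0, 6.91, 6.74, 6.92 and 6.57 on day 3, 7.51, 7.42, 7.72 and 7.73 on day 7, and 8.26, 8.13, 8.02 and 8.16 on day 28. Day 3 was lowest, day 7 lay between, and day 28 was within the control range. The falls were 1.44 ± 0.12 on day 3 (2.72-fold, adjusted p = 5.28e-08) and 0.63 ± 0.12 on day 7 (adjusted p = 0.000794). From day 3 to day 7 it rose by 0.81 ± 0.12 (adjusted p = 0.000255) and from day 7 to day 28 by 0.55 ± 0.12 (adjusted p = 0.00549).

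Asb10 measured 6.58, 6.57, 6.28 and 6.32 on day 0, 5.36, 4.98, 5.25 and 4.86 on day 3, 4.87, 5.17, 5.63 and 5.90 on day 7, and 6.53, 6.51, 6.56 and 6.40 on day 28. The arrays of these early days overlapped each other and lay below days 0 and 28. It fell by 1.33 ± 0.18 on day 3 (adjusted p = 1.29e-05) and 1.05 ± 0.18 on day 7 (adjusted p = 0.000279), and rose by 1.11 ± 0.18 from day 7 to day 28 (adjusted p = 0.000577). Asb4 spread more widely, from 6.44 to 7.09 on day 0, 4.50 to 6.08 on day 3, 4.30 to 6.65 on day 7 and 6.13 to 6.73 on day 28. Its falls of 1.43 ± 0.38 (adjusted p = 0.00564) and 1.26 ± 0.38 (adjusted p = 0.0173) differ in that the arrays of day 7 overlapped those of day 0. Asb1 ran from 4.93 to 5.54 on day 0 and from 4.04 to 4.71 on day 3, and it fell by 0.88 ± 0.21 (adjusted p = 0.00268) and, at day 7, by 0.91 ± 0.21 (adjusted p = 0.00314).

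A pair of Asb genes went the other way. Asb5, enriched in skeletal muscle, gave 9.16, 9.47, 9.21 and 9.50 on day 0, 9.92, 10.02, 9.93 and 10.20 on day 3, 9.69, 10.58, 9.74 and 9.74 on day 7, and 9.52, 8.91, 9.47 and 9.76 on day 28. The early days stood above day 0, and day 28 overlapped it. Its rises were 0.68 ± 0.20 on day 3 (adjusted p = 0.0106) and 0.60 ± 0.20 on day 7 (adjusted p = 0.0288). After centring on the tested genes they were 0.22 and 0.24 and did not pass. The call at day 7 was also lost without replicate 2 of day 7 (0.39), replicate 1 of day 0 (0.54) or replicate 3 of day 0 (0.56).

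Asb6, which binds the insulin receptor adaptor APS, read 5.37, 5.40, 5.47 and 5.49 on day 0, 6.54, 6.49, 6.38 and 6.57 on day 3, 6.0, 5.68, 5.85 and 5.63 on day 7, and 5.95, 5.95, 5.88 and 5.42 on day 28. The day 3 arrays were closely grouped and higher than all others. It rose by 1.07 ± 0.13 on day 3 (2.09-fold, adjusted p = 3.45e-06) and fell by 0.70 ± 0.13 from day 3 to day 7 (adjusted p = 0.00124). Its difference of 0.36 ± 0.13 on day 7 passed narrowly (adjusted p = 0.0446). It was 0.0 after centring on the tested genes, 0.29 on the brighter genes and 0.27 under cyclic loess, and did not pass there. The call was also lost with an intensity trend and robust prior (adjusted p = 0.0582) and with all clusters tested (adjusted p = 0.0614). In 9 of 16 fits without 1 array it did not pass either (0.29 to 0.38). The other Asb genes that fell at day 3 were Asb9 (-0.96) and Asb8 (-0.73), given because they complete the count of 7.

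The list of muscle-enriched members held 16 measured genes of 25. Of these, 9 fell and 2 rose at day 3 (median -0.65), 7 fell and 4 rose at day 7 (median -0.24), and 0 changed at day 28 by limma, with 0 at an unadjusted p under 0.05. Of all genes, 19.6% fell at day 3 and 14.9% at day 7. After centring on the tested genes 13 of the 16 fell at day 3, 9 at day 7 and 4 at day 28 (Fbxl22, Asb8, Klhl31 and Klhl41), beside 58%, 48.3% and 20.9% of all genes. The rises were those of Klhl40 and Asb5 on both days, and of Klhl41 and Trim55 on day 7. Fbxo40, Asb11, Asb14, Asb15, Asb18, Klhl33, Kbtbd12, Kbtbd13 and Trim54 were not analysed here. Of the 14 muscle fibre markers, 7 also fell at day 3 (median -0.31), among them Myh7 (-1.86), Myh4 (-0.96) and Casq1 (-0.93). Their part in these falls was not tested.

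Among F-box genes the largest fall at day 3 belonged to Fbxl17, which removes wrongly paired BTB proteins and so checks the dimers that kelch ligases form. Its log2 values were 10.28, 10.55, 10.36 and 10.43 on day 0, 8.82, 8.79, 9.03 and 8.69 on day 3, 9.25, 9.15, 9.56 and 9.58 on day 7, and 9.60, 9.75, 9.97 and 10.45 on day 28. The days rise in steps from day 3, and day 28 reached the control range with 1 array. Fbxl17 fell by 1.57 ± 0.17 on day 3 (2.98-fold, adjusted p = 5.27e-07) and by 1.02 ± 0.17 on day 7 (adjusted p = 0.000128). At day 28 the difference was -0.46 ± 0.17 (adjusted p = 0.0921).

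Fbxl4, a mitochondrial protein that holds back mitophagy, ranged from 8.45 to 8.86 on day 0, 6.53 to 7.81 on day 3, 7.46 to 7.85 on day 7 and 7.87 to 8.52 on day 28. Days 3 and 7 lay below day 0. It fell by 1.37 ± 0.22 (adjusted p = 5.19e-05) and by 0.89 ± 0.22 (adjusted p = 0.00409), and rose by 0.96 ± 0.22 from day 3 to day 28 (adjusted p = 0.00208).

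Fbxo15, known from mouse embryonic stem cells, measured 5.13, 4.95, 4.94 and 5.47 on day 0, 4.16, 3.76, 3.31 and 3.53 on day 3, 3.58, 3.80, 3.95 and 3.85 on day 7, and 4.64, 4.74, 3.99 and 4.46 on day 28. All loaded arrays lay below all control arrays. Its falls were 1.43 ± 0.19 (adjusted p = 9.42e-06), 1.32 ± 0.19 (adjusted p = 4.49e-05) and, at day 28, 0.66 ± 0.19 (adjusted p = 0.0384). The last call did not pass in 5 of 16 fits without 1 array, where the difference ran from -0.73 to -0.51, nor with all clusters tested (adjusted p = 0.0774).

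Of the ligases tied to muscle atrophy in mice, Fbxo21 and Fbxo30 fell at day 3 and Fbxo31 rose. Fbxo21, called SMART there, read 6.77, 7.00, 6.99 and 6.72 on day 0, 5.12, 6.04, 5.86 and 6.01 on day 3, 6.12, 6.33, 6.47 and 6.21 on day 7, and 6.68, 7.11, 6.79 and 6.56 on day 28. All early arrays lay below the control arrays, and day 28 spanned the control range. It fell by 1.11 ± 0.18 on day 3 (2.16-fold, adjusted p = 7.82e-05) and by 0.59 ± 0.18 on day 7 (adjusted p = 0.0204), the latter not passing without replicate 2 of day 0 (-0.54), replicate 3 of day 0 (-0.55) or replicate 1 of day 7 (-0.53). From day 3 to day 28 it rose by 1.03 ± 0.18 (adjusted p = 0.000271).

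Fbxo30, called MUSA1, gave 7.64, 7.58, 7.40 and 7.72 on day 0, 7.14, 6.86, 7.68 and 6.81 on day 3, 7.01, 7.26, 7.34 and 7.35 on day 7, and 7.32, 7.49, 7.57 and 7.73 on day 28. Replicate 3 of day 3 lay within the control range and the other 3 below it. The fall at day 3 was 0.46 ± 0.17 (adjusted p = 0.0356), and it did not pass in 6 of 16 fits without 1 array (-0.47 to -0.36). It also did not pass under cyclic loess (-0.44, adjusted p = 0.0506), with only the compared groups fitted (adjusted p = 0.0784) or with all clusters tested (adjusted p = 0.0539). Fbxo31, which marks cyclin D1, was higher at day 3. It ranged from 8.13 to 8.52 on day 0 and from 8.91 to 9.41 on day 3, a rise of 0.81 ± 0.22 (adjusted p = 0.00594) that was 0.35 after centring on the tested genes and then did not pass.

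The largest rise of an F-box gene was that of Fbxo5, also called Emi1, an inhibitor of the anaphase-promoting complex made by dividing cells. The arrays read 3.16, 3.44, 3.41 and 3.2 on day 0, 5.44, 5.46, 4.25 and 5.72 on day 3, 3.80, 3.79, 3.11 and 4.07 on day 7, and 3.69, 2.95, 3.64 and 3.2 on day 28. Day 3 alone stood above, replicate 3 of day 3 less so. Fbxo5 rose by 1.92 ± 0.27 on day 3 (adjusted p = 1.7e-05), from a day 0 mean under the median of all clusters, and fell by 1.52 ± 0.27 to day 7 (adjusted p = 0.000882). The mean over the cell division markers was 6.03 to 7.02 on the day 3 arrays and 4.15 to 4.38 on those of day 7. Their part in this result was not tested.

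Fbxo10, which marks the survival protein Bcl2, ranged from 1.91 to 2.60 on day 0, 2.89 to 3.88 on day 3, 3.05 to 3.90 on day 7 and 2.61 to 3.62 on day 28, near the dim end of the array. It rose by 1.10 ± 0.26 on day 3 (adjusted p = 0.00248) and by 1.12 ± 0.26 on day 7 (adjusted p = 0.00334). Fbxl6 rose by 1.03 ± 0.21 on day 3 (adjusted p = 0.000567), from a range of 3.55 to 4.59 to one of 4.81 to 5.47. Fbxo46 ranged from 4.07 to 4.38 on day 0, 4.59 to 5.14 on day 7 and 4.60 to 4.98 on day 28, and rose by 0.62 ± 0.14 (adjusted p = 0.00266) and 0.56 ± 0.14 (adjusted p = 0.02). After centring on the tested genes these were 0.26 and 0.30 and did not pass. The day 28 call was lost without replicate 4 of day 0 (0.49), replicate 1 of day 28 (0.54) or replicate 3 of day 28 (0.50).

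Fbxo38, which marks the T cell receptor PD-1, ranged from 7.16 to 7.45 on day 0 and from 6.70 to 7.03 on day 28, and fell by 0.44 ± 0.12 (adjusted p = 0.0244). Its call was lost without replicate 2 (-0.38) or 3 (-0.44) of day 0 and without replicate 1 (-0.39) or 2 (-0.40) of day 28. It had also fallen by 0.36 ± 0.12 on day 3 (adjusted p = 0.0187). The other F-box genes that fell at day 3, listed to complete the count, were Fbxo3, Fbxo48, Fbxw12, Fbxo11 and Fbxw4, from -0.87 (Fbxo3) to -0.39 (Fbxw4), and the other rises were those of Fbxw9 (0.87) and Fbxo4 (0.47). From day 3 to day 7, 1 F-box gene rose and 2 fell (2.33% and 4.65%), beside 6.02% and 9.23% of all genes.

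**Figure D4:**
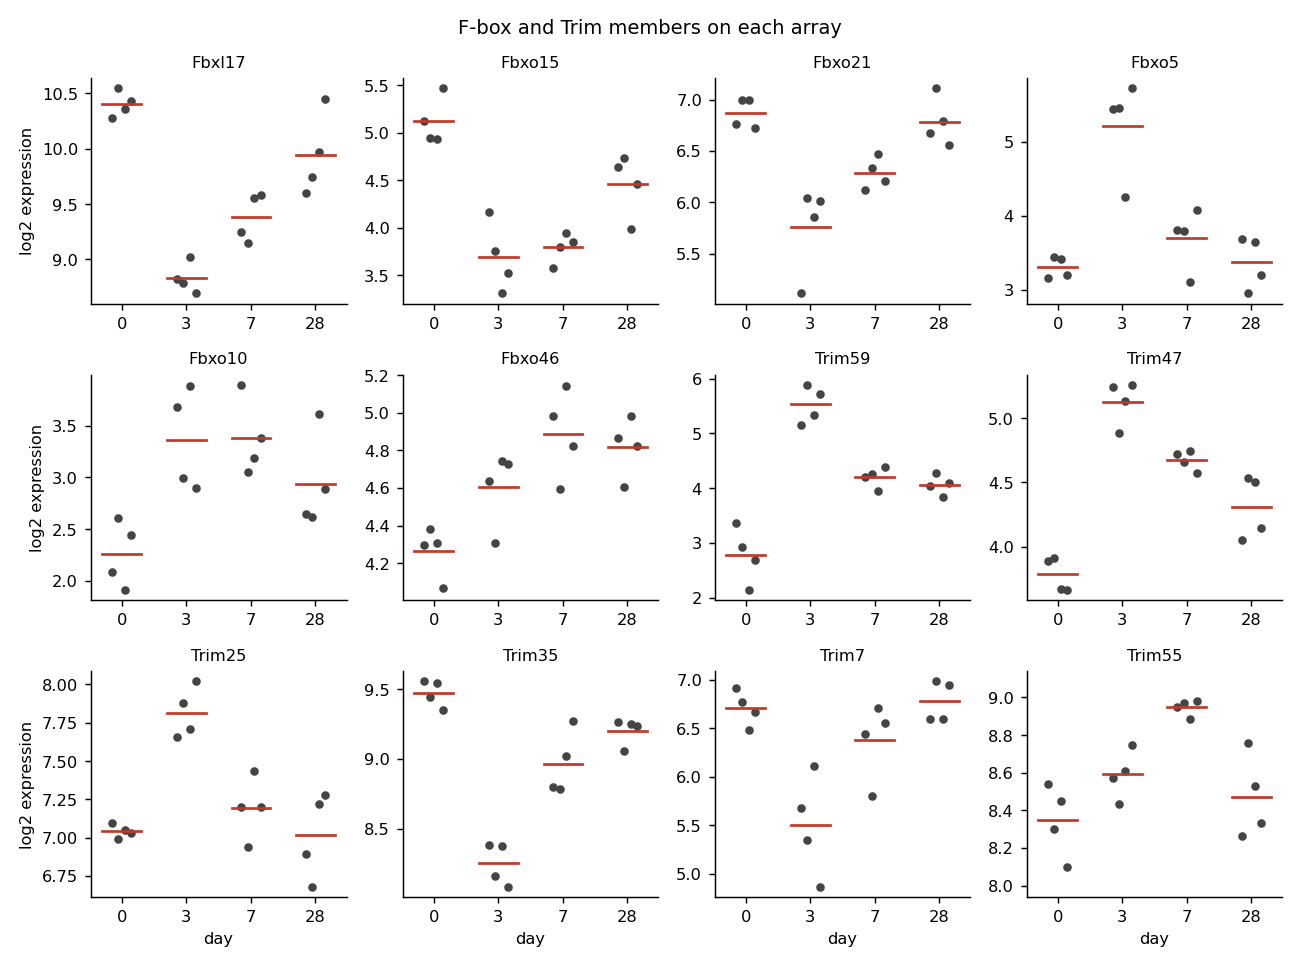
Log2 expression of 6 F-box and 6 Trim members on each of the 16 arrays by day, each gene with its own axis. Points are arrays and red bars the means of 4. Fbxo5, Trim59, Trim47 and Trim25 are highest at day 3, Trim55 on day 7, and Fbxl17, Fbxo21, Trim35 and Trim7 are lowest at day 3.

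Trim59, a membrane-bound Trim protein that is abundant in many tumours, had the largest rise of all members and was still higher at day 28. It read 3.36, 2.92, 2.14 and 2.69 on day 0, 5.16, 5.89, 5.35 and 5.73 on day 3, 4.2, 4.26, 3.94 and 4.38 on day 7, and 4.05, 4.28, 3.84 and 4.09 on day 28. No loaded array overlapped the control arrays, and days 7 and 28 overlapped each other. The rises were 2.75 ± 0.22 on day 3 (adjusted p = 1.62e-08), 1.42 ± 0.22 on day 7 (adjusted p = 7.03e-05) and 1.29 ± 0.22 on day 28 (adjusted p = 0.000925). Its day 0 mean lay under the median of all clusters, so no linear fold is given. The cell division markers stood at 3.66 to 3.99 on day 28 and 3.62 to 3.84 on day 0, the macrophage markers at 5.32 to 5.86 and 4.1 to 4.39, and the fibroblast markers at 8.62 to 8.91 and 7.06 to 7.29. Their part in the Trim59 result was not tested.

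Trim47 gave 3.89, 3.91, 3.67 and 3.66 on day 0, 5.24, 4.88, 5.13 and 5.26 on day 3, 4.72, 4.66, 4.74 and 4.57 on day 7, and 4.05, 4.53, 4.50 and 4.15 on day 28. The 4 days did not overlap at all, with day 3 highest. It rose by 1.35 ± 0.13 (2.54-fold, adjusted p = 2.82e-07), 0.89 ± 0.13 (adjusted p = 6.3e-05) and, at day 28, 0.52 ± 0.13 (adjusted p = 0.02). The day 28 call was lost after centring on the tested genes (0.27), under cyclic loess (0.42), and without replicate 3 (0.49) or 4 (0.48) of day 0 or replicate 2 (0.45) or 3 (0.46) of day 28. It was also lost with an intensity trend and robust prior (adjusted p = 0.0506) and with only the compared groups fitted (adjusted p = 0.057).

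Trim proteins that serve the sensing of viral RNA or restrict viruses form a list of 8 measured genes of 17. At day 3, 5 rose and 1 fell (median 0.55), at day 7, 2 rose and 1 fell, and at day 28, 2 rose and 0 fell. Of all genes, 21.7%, 16.9% and 6.29% rose on these days and 19.6%, 14.9% and 2.8% fell. Trim25, which activates the RNA sensor RIG-I, measured 7.10, 6.99, 7.05 and 7.03 on day 0, 7.66, 7.88, 7.71 and 8.02 on day 3, 7.20, 6.94, 7.43 and 7.20 on day 7, and 6.89, 6.68, 7.22 and 7.28 on day 28. Day 3 alone stood above, and days 7 and 28 spanned the control values. It rose by 0.77 ± 0.14 on day 3 (adjusted p = 0.000291), 0.31 and not past the test after centring on the tested genes, and fell by 0.62 ± 0.14 to day 7 (adjusted p = 0.0067).

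Trim65, which activates the RNA sensor MDA5, ranged from 4.61 to 4.90 on day 0, 5.40 to 5.71 on day 3, 4.71 to 5.29 on day 7 and 5.24 to 5.79 on day 28. It rose by 0.82 ± 0.15 on day 3 (adjusted p = 0.000305) and by 0.65 ± 0.15 on day 28 (adjusted p = 0.0139), the latter 0.51 and not past the test without replicate 3 of day 28. The day 28 call of Trim65 was also lost after centring on the tested genes (0.39, adjusted p = 0.0766). Trim34, a relative of the restriction factor Trim5, ranged from 4.12 to 5.01 on day 0, 5.02 to 5.74 on day 3 and 5.17 to 5.74 on day 7, with rises of 0.84 ± 0.20 (adjusted p = 0.00265) and 0.85 ± 0.20 (adjusted p = 0.00374). Trim5 and Trim6, outside the naming rule, complete the 5 rises at day 3 with 0.64 and 0.46. Trim6 lay under the median of all clusters in every group. Genes of the interferon response, measured beside them, rose in 6 of 12 cases at day 3 and 5 of 12 on day 7, with 0 falls, where 21.7% and 16.9% of all genes rose, and 0 changed at day 28 by limma, with 0 also at an unadjusted p under 0.05. After centring on the tested genes 4 rose and 2 fell at day 3 and 3 rose at day 7. Mx1, an antiviral protein, rose by 1.65 ± 0.40 on day 3 (adjusted p = 0.00276) and Dhx58, a regulator of RNA sensing, by 1.42 ± 0.27 (adjusted p = 0.000288). Their part in the Trim results was not tested.

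The gene of this list that fell was Trim35, which marks the interferon regulator Irf7 and binds the glycolytic enzyme Pkm2. It read 9.56, 9.45, 9.55 and 9.35 on day 0, 8.38, 8.16, 8.38 and 8.08 on day 3, 8.80, 8.78, 9.02 and 9.27 on day 7, and 9.27, 9.06, 9.25 and 9.24 on day 28. All loaded arrays lay below the control arrays, and day 3 below all others. It fell by 1.23 ± 0.13 on day 3 (2.34-fold, adjusted p = 4.75e-07) and by 0.51 ± 0.13 on day 7 (adjusted p = 0.00512), and rose by 0.72 ± 0.13 from day 3 to day 7 (adjusted p = 0.000862). Trim7, which binds glycogenin, ranged from 6.48 to 6.91 on day 0, 4.87 to 6.11 on day 3, 5.80 to 6.71 on day 7 and 6.59 to 6.98 on day 28, and fell by 1.21 ± 0.23 on day 3 (adjusted p = 0.000337). Trim16, a receptor in the autophagy of damaged lysosomes, fell by 0.83 ± 0.16 on day 3 (adjusted p = 0.000411), from 7.30 to 7.45 down to 6.05 to 6.99.

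Trim proteins of the muscle fibre differed among themselves. Trim72, also called MG53, which reseals torn membranes, measured 9.45, 9.62, 9.51 and 9.15 on day 0, 8.90, 8.86, 8.89 and 8.76 on day 3, 9.13, 8.81, 9.31 and 9.77 on day 7, and 9.29, 9.16, 9.33 and 9.77 on day 28. Day 3 lay below day 0, and the later days overlapped day 0. It fell by 0.58 ± 0.18 on day 3 (adjusted p = 0.015), a call lost under cyclic loess (-0.40).

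Trim55, also called MuRF2, a ligase at the sarcomere and a relative of Trim63, read 8.54, 8.30, 8.45 and 8.10 on day 0, 8.57, 8.44, 8.61 and 8.75 on day 3, 8.95, 8.97, 8.89 and 8.98 on day 7, and 8.26, 8.76, 8.53 and 8.34 on day 28. Day 7 stood above every array of the other days. Trim55 rose by 0.60 ± 0.13 on day 7 (adjusted p = 0.00185), 0.24 and not past the test after centring on the tested genes, and fell by 0.48 ± 0.13 from day 7 to day 28 (adjusted p = 0.0174). The latter call was lost without replicate 1 (-0.41) or 4 (-0.43) of day 28. Trim32, mutated in a human limb-girdle dystrophy, ranged from 5.02 to 5.63 on day 0 and from 4.66 to 5.11 on day 3, where 1 array overlapped, and fell by 0.59 ± 0.17 (adjusted p = 0.0117).

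Trim36, which binds microtubules, rose by 1.06 ± 0.23 on day 3 (adjusted p = 0.00126) from 2.48 to 3.37 up to 3.39 to 4.59, and fell by 0.92 ± 0.23 to day 7 (adjusted p = 0.0118). Trim62 did not pass against day 0 and fell by 1.11 ± 0.25 from day 7 to day 28 (adjusted p = 0.00494), from 2.98 to 4.17 down to 2.18 to 2.84. Both genes were dim, with a mean above the median of all clusters only on day 3 for Trim36 and only on day 7 for Trim62. The remaining called Trim genes at day 3, listed to account for all calls, were Trim8 (0.79), which rose, and Trim71 (-0.47) and Trim75l-ps1 (-0.39), which fell and lay under the median of all clusters in every group.

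**Figure D5:**
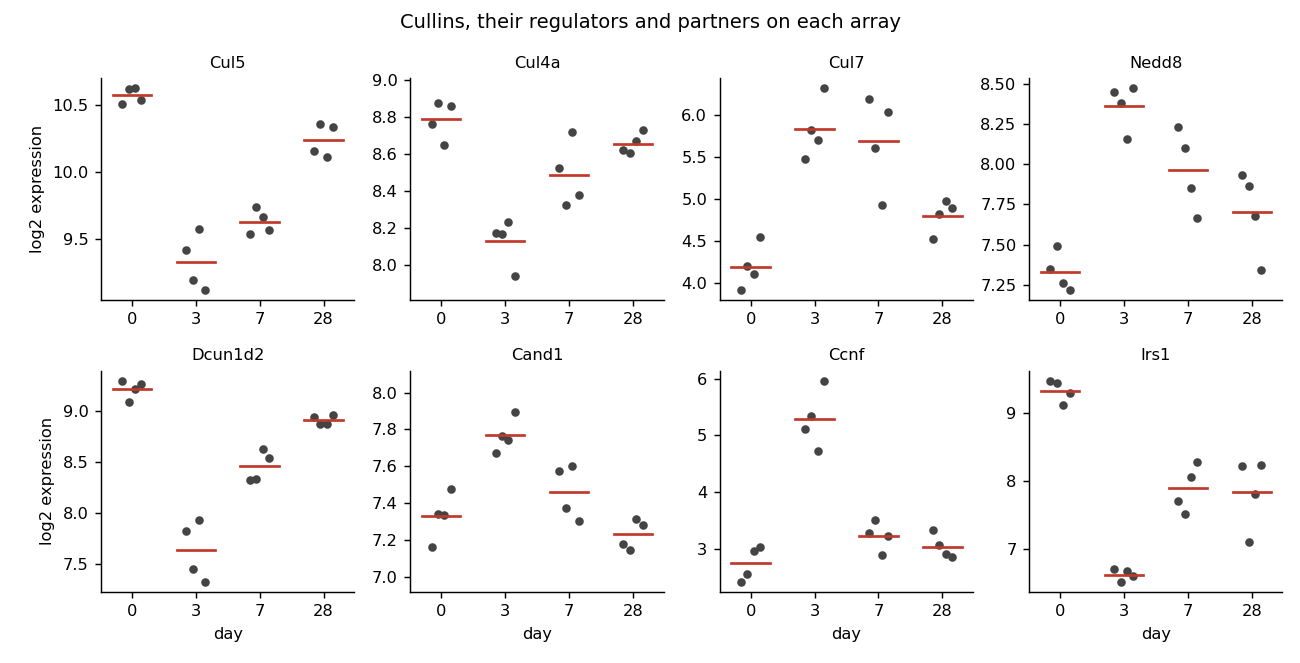
Log2 expression of 3 cullins, their regulators Nedd8, Dcun1d2 and Cand1, the F-box protein Ccnf and the substrate Irs1 on each of the 16 arrays by day, each gene with its own axis. Points are arrays and red bars the means of 4. Cul5, Dcun1d2 and Irs1 are lowest at day 3, and Cul7, Nedd8 and Ccnf are highest there.

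The machinery that these adaptors dock on did not move one way. Of 27 measured genes of the cullin-RING core, 5 rose and 5 fell at day 3 (median 0.01), 5 rose and 2 fell at day 7, and 1 rose at day 28. The share called was 37%, 25.9% and 3.7%, beside 41.3%, 31.7% and 9.09% of all genes. Cul5, the scaffold of Asb proteins, read 10.51, 10.61, 10.62 and 10.54 on day 0, 9.42, 9.20, 9.58 and 9.13 on day 3, 9.54, 9.74, 9.67 and 9.57 on day 7, and 10.16, 10.36, 10.11 and 10.33 on day 28. All loaded arrays lay below the control arrays, and days 3 and 7 far below. Cul5 fell by 1.24 ± 0.12 on day 3 (adjusted p = 1.71e-07) and by 0.94 ± 0.12 on day 7 (adjusted p = 1.02e-05). Its difference at day 28 was -0.33 ± 0.12 (adjusted p = 0.0948). Cul1, the scaffold of F-box proteins, did not pass at day 3 (-0.24 ± 0.12, adjusted p = 0.108), and Cul3, the scaffold of kelch proteins, was not analysed here.

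Dcun1d2, which helps attach Nedd8 to cullins and so switches them on, measured 9.30, 9.09, 9.22 and 9.27 on day 0, 7.83, 7.45, 7.94 and 7.33 on day 3, 8.33, 8.33, 8.63 and 8.54 on day 7, and 8.95, 8.87, 8.87 and 8.96 on day 28. The 4 days did not overlap. It fell by 1.59 ± 0.14 on day 3 (adjusted p = 4.56e-08) and by 0.76 ± 0.14 on day 7 (adjusted p = 0.000315). Cul7, the scaffold that with Fbxw8 marks Irs1, went up from a range of 3.92 to 4.54 on day 0 to 5.48 to 6.32 on day 3, a rise of 1.64 ± 0.24 (adjusted p = 2.14e-05), and was 1.5 ± 0.24 higher at day 7 (adjusted p = 0.000106). Nae1, a subunit of the Nedd8-activating enzyme, rose by 0.74 ± 0.19 on day 28 (adjusted p = 0.0235).

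Of 18 other cullin-RING adaptors, 6 rose and 7 fell at day 3. At day 7, 2 rose and 7 fell, and at day 28, 1 fell. The share called was 72.2%, 50% and 5.56%, beside 41.3%, 31.7% and 9.09% of all genes. Ccnf, cyclin F, the F-box protein that gave the family its name, ranged from 2.41 to 3.03 on day 0 and from 4.73 to 5.97 on day 3, and rose by 2.55 ± 0.22 (adjusted p = 5.78e-08) from a dim day 0 level. Cish, a SOCS box protein switched on by cytokine and growth hormone signals, gave 9.10, 9.61, 7.88 and 8.07 on day 0, 6.03, 6.29, 6.69 and 5.05 on day 3, 6.40, 5.85, 5.02 and 6.30 on day 7, and 8.32, 5.59, 5.55 and 5.52 on day 28. Days 3 and 7 lay below day 0, while at day 28 replicate 1 lay in the control range and 3 arrays far below. Its falls were 2.65 ± 0.56 (adjusted p = 0.000887), 2.77 ± 0.56 (adjusted p = 0.000992) and 2.42 ± 0.56 (adjusted p = 0.0111). Socs2, which curbs growth hormone signalling, fell by 1.85 ± 0.26 on day 3 (adjusted p = 1.47e-05) and by 0.97 ± 0.26 on day 7 (adjusted p = 0.00799). Enc1, a kelch protein outside the Klhl names, rose by 1.08 ± 0.23 on day 7 (adjusted p = 0.00174).

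Of 14 listed partners and substrates, 4 rose and 5 fell at day 3, 5 rose and 4 fell at day 7, and 3 fell at day 28. The share called was 64.3%, 64.3% and 21.4%, beside 41.3%, 31.7% and 9.09% of all genes, on a list chosen with results known. Irs1, the insulin receptor substrate that several of these ligases mark, read 9.47, 9.44, 9.11 and 9.29 on day 0, 6.70, 6.51, 6.67 and 6.59 on day 3, 7.71, 7.51, 8.06 and 8.28 on day 7, and 8.22, 7.09, 7.81 and 8.24 on day 28. All loaded arrays lay below the control arrays. Its falls were 2.71 ± 0.22 (adjusted p = 1.93e-08), 1.44 ± 0.22 (adjusted p = 6.23e-05) and 1.49 ± 0.22 (adjusted p = 0.000264). Irs2 fell on the same days, by 2.03 ± 0.30, 1.83 ± 0.30 and 1.18 ± 0.30, with adjusted p = 2.28e-05, 0.000129 and 0.0174. Myc, a substrate of Fbxw7, rose by 2.18 ± 0.27 on day 3 (adjusted p = 3.99e-06) and by 1.31 ± 0.27 on day 7 (adjusted p = 0.00119). Flnc, muscle filamin, of the filamin family that Asb2 marks, fell by 0.86 ± 0.18 on day 28 (adjusted p = 0.00467). Flna, the other filamin measured, rose by 1.36 ± 0.23 on day 3 (adjusted p = 8.6e-05) and by 0.61 ± 0.23 on day 7 (adjusted p = 0.0469). Arrays measure transcripts, and no protein or ubiquitin was measured.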

How the data were processed

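The deposited values are on a log2 scale, with 1 value for each transcript cluster on each array. Per the submitters' processing notes the authors used oligo, RMA and limma. Versions, settings, genome build and annotation are not given in the sources used here. The table held 36685 clusters. Of the clusters, 15653 were listed in the platform annotation (14824 with 1 gene symbol, 829 with several) and 21032 were unnamed. Arrays have no read depth, and their number limits the precision. No batch is named in the labels.

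The brightest cluster per gene gave 14557 genes. The 16 arrays were fitted together, with a mean per day, by limma 3.58.1 in R 4.3.3 with empirical Bayes moderation (12 residual and 4.99 prior degrees of freedom), two-sided, adjusted by Benjamini-Hochberg within each of 6 comparisons at 0.05. Tested on simulated data for day 3 against day 0 with 14557 genes, of which 50 were changed for each size, it called 24% of those changed by 0.5 (log2), 74% by 1, 94% by 1.5 and 100% by 2. Far fewer genes changed there than the 41.3% called at day 3, so these rates do not give the power in the data.

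The members, the gene lists and a panel (19 of 28 genes measured) were chosen with earlier results of these data known. Genes are named by a rule: per family the 3 largest called rises and falls against day 0 whose arrays do not overlap, the largest of each between loaded days, the panel, and up to 3 called genes per list. Other genes were chosen after their values were seen. All 127 symbols matched RefSeq (GRCr8), which changed 0. Same-numbered arrays deviated together with correlations from -0.0355 to 0.0916 over 24 pairs, 0 over 0.1, so numbers were not taken as pairs. Alternatives covered the prior, filters on dim genes, scaling, clusters, arrays fitted, a replicate block and each array left out.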

Additional observations from a re-analysis of the deposited data

Results flagged for a closer look

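Among the 43 named members, 172 groups of 4 arrays were examined for 1 array far from the other 3, and 7 were found. Chance alone gives about 1 in 20 such groups. Asb2 read 11.42 on replicate 1 of day 28, above the 10.9 to 10.96 of the others. Asb5 read 10.58 on replicate 2 of day 7, above 9.68 to 9.74, and its rise at day 7 was 0.39 without that array. Asb6 read 5.42 on replicate 4 of day 28, below 5.88 to 5.95. Klhl23 read 7.04 on replicate 2 of day 7, below 7.8 to 7.85. Klhl38 read 9.64 on replicate 2 of day 0, above 9.24 to 9.26. Trim35 read 9.06 on replicate 2 of day 28, below 9.24 to 9.27. Trim65 read 5.8 on replicate 3 of day 28, above 5.24 to 5.28, and its call at day 28 was lost without that array.

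Klhl9 stood out because it was called lower at day 3 and higher at day 7 against the same day 0 arrays. The test of the difference between days 7 and 3 gave 0.732 on the log2 scale (adjusted p = 0.00076 in limma).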

How the results depend on the processing

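Of 127 named results, 95 passed the test and 70 of those kept direction and call in every alternative, 21 lost the call under some scaling, 19 in some fit without 1 array and 2 with the replicate number as a block (Asb6 at day 7, adjusted p = 0.0532, and Klhl34 from day 7 to day 28, adjusted p = 0.0735). Same-numbered arrays share only a number, and 7 of 16 arrays correlated best with their own number. With the replicate block 60, 45 and 8 members changed at days 3, 7 and 28 against day 0, 23 from day 3 to day 7, 19 from day 7 to day 28 and 52 from day 3 to day 28, beside 60, 44, 7, 22, 19 and 51 without it. Centring on the tested genes gave 10 rises and 78 falls at day 3, 70 changed members (4 and 66) at day 7 and 30 (1 and 29) at day 28, 22 rises from day 3 to day 7, 24 from day 7 to day 28, and 50 rises and 10 falls from day 3 to day 28. It follows from the shifts of -0.461, -0.359, -0.252, 0.102, 0.107 and 0.209 that this centring adds. Centring on the brighter 50% of genes gave 22 rises from day 3 to day 7 and 4 falls at day 28. An intensity trend with a robust prior gave 18 rises from day 3 to day 7. Without the dimmest 50% of genes there were 20 rises and 6 falls from day 3 to day 7 and 11 falls from day 3 to day 28, with fewer genes tested. At day 28, fitting only the compared groups gave 4 changed members, 3 higher and 1 lower, cyclic loess gave 3 rises, and testing all clusters gave 1 fall. For these the cause was not tested. Leaving out 1 array gave 9 to 15 rises at day 7, 2 to 8 changed members, 1 to 6 rises and 0 to 3 falls at day 28, and 9 to 18 rises from day 7 to day 28. Some named differences passed only under an alternative. Besides those of Fbxl22, Fbxw7, Klhl30, Klhl31 and Klhl41 given above, centring on the tested genes did this for Fbxo30 (-0.70), Trim32 (-0.46) and Trim72 (-0.53) at day 7 and Trim32 (-0.52) at day 28, cyclic loess for Trim55 at day 3 (0.37) and Fbxo31 at day 7 (0.63), and the robust prior and the filter on the dimmest 50% for Fbxo31 at day 7 (0.55).

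Some log2 differences turned sign. Of these only Klhl41 (-0.03) and Klhl9 (-0.01) at day 7 had passed the test. Centring on the tested genes turned those and Fbxl22 (-0.24), Klhl30 (-0.21) and Trim25 (-0.21) at day 7, Fbxw7 (-0.44) and Trim55 (-0.22) at day 3, and Asb2 (-0.25), Asb5 (-0.17), Fbxo5 (-0.19), Klhl38 (-0.12), Klhl40 (-0.06) and Trim55 (-0.13) at day 28. The brighter-gene centring turned Asb2 at day 28 (-0.06) and Fbxw7 at day 3 (-0.14), and cyclic loess turned Fbxo5 at day 28 (-0.02) and Klhl41 at day 3 (0.29). In fits without 1 array the sign turned within a range of -0.15 to 0.21 for Fbxw7, -0.07 to 0.00 for Klhl41 (both at day 3) and 0.00 to 0.25 for Klhl30 (at day 7). At day 28 the ranges were -0.12 to 0.06 for Asb2, -0.03 to 0.25 for Asb5, -0.13 to 0.01 for Fbxo30, -0.04 to 0.21 for Fbxo5, -0.26 to 0.03 for Fbxw7, -0.11 to 0.09 for Trim25 and -0.17 to 0.03 for Trim72. Dim signal limits the 34 members that lay under the median of all clusters in every group, and 4 arrays a group limit small differences.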
